A study of Mus musculus with 14 samples.

Results

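The genes described here make, carry and respond to retinoic acid, the active form of vitamin A. Aldh1a3, Aldh1a1 and Aldh1a2 encode retinaldehyde dehydrogenases, Dhrs3 a retinaldehyde reductase, Rbp4 and Stra6 the carrier and the membrane receptor of retinol, Crabp1 a binding protein of retinoic acid and Rarb a retinoic acid receptor. They are all 8 genes of a set chosen by name, and proposed with earlier results of these arrays known, above all the high Aldh1a3 and low Rbp4 signals of knockout islets. A probe set of the array was taken where the platform annotation gives it exactly 1 gene symbol, the brightest over all arrays where a gene had several. Each of the 8 genes had 1 such probe set, out of 18820 genes measured in this way.

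Retinol travels in blood bound to RBP4 and enters cells through STRA6 in tissues that express this receptor. Cellular dehydrogenases turn it into retinaldehyde, DHRS3 turns retinaldehyde back into retinol, and the ALDH1A enzymes oxidise retinaldehyde irreversibly to retinoic acid. Retinoic acid binds nuclear receptors such as RARB, which act on direct repeats of a short motif in DNA, and CYP26 enzymes break it down. In mouse islets Aldh1a3 is known as a marker of dedifferentiated beta cells, and Rbp4 transcripts are known to be high in the somatostatin-producing delta cells.

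The samples were pancreatic islets of 14 mice, 1 array each, and the label wording gives each sample its own mouse. Tlr2/Tlr4 double knockout mice (DKO, on a C57BL/6 background), which lack the Toll-like receptors of those names, were set against wild-type C57BL/6 mice (WT). Both receptors sense microbial products, and the series title places them in the adaptive expansion of beta cells in diet-induced obesity. Every mouse ate a high-fat diet (60% fat) from 6 weeks of age, so no group had a control diet. The groups were DKO after 7 months of diet (4 arrays), WT after 7 months (4 arrays), DKO after 5 weeks (2 arrays) and WT after 5 weeks (4 arrays). Mice at 7 months were also older, so age and time on the diet cannot be told apart. The labels describe the knockout mice with no tissue restriction and do not say whether the genotypes were littermates.

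The deposited values are log2 signals from RMA, a method that corrects background, normalizes arrays and summarises the probes of a set. A difference of 1 is therefore 2-fold, and levels are compared between arrays for 1 probe set, never between genes. Array medians lay between 3.89 and 3.98, and arrays correlated at 0.986 to 0.995 within groups and at 0.978 to 0.993 between groups. Tlr2, deleted in DKO mice, averaged 5.31 ± 0.10 in DKO and 6.37 ± 0.14 in WT at 7 months (SD, n = 4 each), and 4.79 ± 0.03 in DKO (n = 2) and 6.45 ± 0.17 in WT (n = 4) at 5 weeks. The labels do not say which exons were deleted, so the position of this probe set relative to them was not checked. The mean level of the 8 beta cell markers, Ins2 and Iapp among them, lay between 10.5 and 10.7 on every array. Ins2 and Iapp were very bright, with means of 11.91 and 12.89 in DKO islets at 7 months (SD 0.001 and 0.020). Whether such signals, and those of the hormone genes further on, were near the upper limit of the array was not tested. The flat level is therefore not read as an unchanged beta cell content. None of the 8 markers passed the test in any comparison (limma, with between 0 and 3 under an unadjusted p of 0.05), and 2 came near it at 7 months. Slc2a2, the glucose transporter gene, averaged 11.24 in DKO and 11.88 in WT (-0.64 ± 0.18, limma adjusted p = 0.0568), and Ucn3, the urocortin 3 gene, averaged 10.67 in DKO and 11.04 in WT (-0.37 ± 0.11, limma adjusted p = 0.0641).

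Direct repeats of a kind that retinoic acid receptors can read were looked for beside the gene starts. The reason was that Rarb and Cyp26a1 are textbook examples of genes induced by retinoic acid. The windows were the RefSeq promoters of the mouse build GRCm38.p6, from 250 bases before to 50 after each start. The search took a pair of cores, each reading AGGTCA or one of the variants AGTTCA and GGGTCA and also GGTTCA, repeated in the same direction with 1, 2 or 5 bases between them, on either strand. Of 32817 windows, 0.588% held such a repeat. With 1 base between the cores the share was 0.222%, with 2 bases 0.268% and with 5 bases 0.0975%. Of the 8 genes, 7 had a window (all but Aldh1a3), and of these 7 only Rarb held a repeat. Among the 59 genes of the pathway lists used further on (the 8 included), 46 had a window. The other repeats named were in Cyp26a1 and Bco1, the gene of the enzyme that splits beta-carotene into retinaldehyde. Repeats of listed genes were not looked up on 1 chromosome, whose windows stay in the counts. Each stretch shown ends at the base before the start, with the repeat in capitals and the lower-case letters around it as context.
Rarb (chr14:16575477-16575596, minus strand): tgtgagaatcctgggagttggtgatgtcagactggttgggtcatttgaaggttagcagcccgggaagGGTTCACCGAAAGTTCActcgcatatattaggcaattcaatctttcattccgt
Cyp26a1 (chr19:37697688-37697807, plus strand): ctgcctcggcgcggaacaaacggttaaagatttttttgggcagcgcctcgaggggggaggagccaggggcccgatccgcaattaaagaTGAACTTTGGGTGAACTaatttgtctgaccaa
Bco1 (chr8:117095745-117095864, plus strand): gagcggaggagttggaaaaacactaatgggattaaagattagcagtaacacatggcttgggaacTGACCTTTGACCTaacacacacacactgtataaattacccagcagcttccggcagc
The Rarb repeat has 5 bases between its cores and lies at -53 to -37 from the start on the sense strand. The Cyp26a1 repeat, also with 5 bases between, lies at -32 to -16 and reads on the antisense strand, and the Bco1 repeat, with 1 base between, lies at -56 to -44, also antisense. These are matches of letters and do not show binding in islets, nor which nuclear receptor would bind. Whether the Bco1 repeat, with 1 base between, answers to retinoic acid was not tested.

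Aldh1a3 was higher in DKO than in WT islets at both times and higher at 7 months than at 5 weeks in both genotypes. At 7 months its log2 signals (probe set 10564417) were 9.59, 8.47, 9.71 and 9.12 in DKO islets, against 6.43, 6.31, 6.43 and 6.94 in WT islets. At 5 weeks they were 5.90 and 6.46 in DKO islets, against 4.55, 4.08, 4.99 and 3.92 in WT islets. The genotypes did not overlap at either time, and neither did the times within a genotype, whereas 1 of the DKO arrays at 5 weeks lay among the WT arrays at 7 months and the other just under them.

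Between genotypes the Aldh1a3 difference was 2.69 ± 0.27 at 7 months (log2, SE of the fit), or 6.47-fold, and 1.80 ± 0.33 at 5 weeks, or 3.47-fold. These were the 4th and the 8th largest rises of all genes, and they are given as a description, since Aldh1a3 was chosen for them. Over time Aldh1a3 rose 8.24-fold in DKO islets (3.04 ± 0.33, limma adjusted p = 0.000102) and 4.42-fold in WT islets (2.14 ± 0.27, limma adjusted p = 0.000598). In each genotype only 1 of the 18820 genes had a larger rise with time, as the ranks of Aldh1a3 were 2 and 2. The time difference in DKO exceeded that in WT by 0.90 ± 0.43, which did not pass the test of the interaction of genotype and time (limma adjusted p = 0.505, 95% interval -0.02 to 1.82). The comparisons over time share arrays with the genotype comparisons, so they are independent neither of them nor of the choice of Aldh1a3.

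Rbp4 showed the opposite order, with its lowest signals in DKO islets at 7 months. At 7 months its log2 signals (probe set 10467319) were 6.62, 6.70, 6.21 and 6.33 in DKO islets, against 8.0, 8.67, 8.35 and 8.47 in WT islets. At 5 weeks they were 9.14 and 9.25 in DKO islets, against 9.46, 9.55, 9.32 and 9.17 in WT islets. The genotypes overlapped at 5 weeks and were apart at 7 months, and in each genotype every array at 7 months was below every array at 5 weeks.

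At 7 months the Rbp4 difference between DKO and WT was -1.91 ± 0.14, or 3.76-fold lower in DKO, the 10th largest fall of all genes. At 5 weeks it was -0.18 ± 0.17. Both are a description, because the low Rbp4 signal at 7 months was known when the genes were chosen. Over time Rbp4 fell 6.64-fold in DKO islets (-2.73 ± 0.17, limma adjusted p = 1.02e-06) and 2.00-fold in WT islets (-1.0 ± 0.14, limma adjusted p = 0.00159). The comparison in DKO uses the 7-month arrays for whose low signal Rbp4 was chosen, and that in WT shares arrays with the genotype comparisons. Neither p-value is independent of that choice. The interaction was -1.73 ± 0.23 (limma adjusted p = 0.0172), a larger fall in DKO. It contains the genotype difference at 7 months and is no separate evidence of it, and without replicate 1 of DKO at 5 weeks it was -1.78 with an adjusted p of 0.0677.

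**Figure D1:**
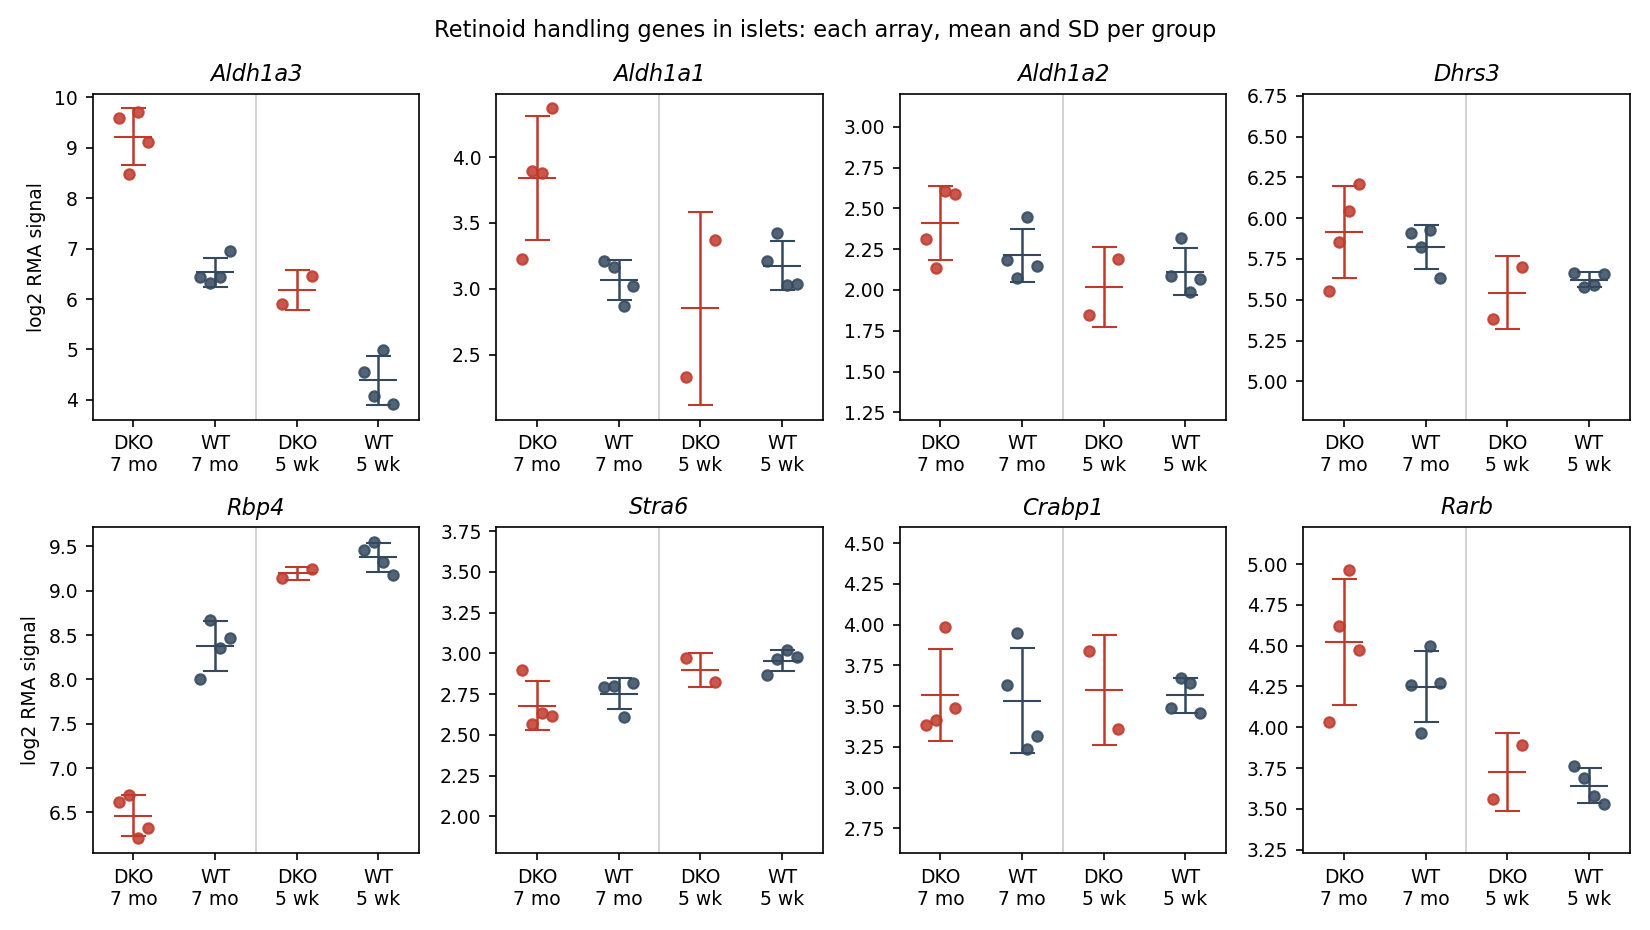
Log2 RMA signal of each of the 8 genes (vertical axes, scaled per gene) on every array, by genotype and time on the diet (horizontal axes). Points are arrays, and bars are the mean and SD of the group. Aldh1a3 is highest and Rbp4 lowest in DKO islets at 7 months, with no overlap with WT at that time, while Crabp1 overlaps between all groups.

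Rbp4 transcripts also mark delta cells, so the other delta cell markers are given beside it. Sst, the somatostatin gene, had log2 signals of 11.85, 11.89, 11.58 and 11.65 in DKO islets at 7 months, against 12.52, 12.74, 12.60 and 12.63 in WT islets. At 5 weeks Sst had 12.78 and 12.85 in DKO islets, against 12.86, 12.90, 12.85 and 12.91 in WT islets. Within each genotype at 7 months the arrays ran in the same order for Sst as for Rbp4, with replicate 2 highest in both genotypes.

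Sst was lower in DKO at 7 months by 0.88 ± 0.08, which passed the test (limma log2 difference -0.88, adjusted p = 2.35e-05), and its interaction was -0.82 ± 0.13 (limma adjusted p = 0.026). The interaction of Sst lost its call in 12 of 26 other settings and kept it in 5 of the 14 fits with an array left out. Over time Sst fell in DKO by 1.07 ± 0.10 (limma log2 difference -1.07, adjusted p = 3.5e-05) and differed by -0.26 ± 0.08 in WT (limma adjusted p = 0.151). Ghsr, the ghrelin receptor gene, fell over time in DKO (-0.90 ± 0.18, limma adjusted p = 0.00782). Hhex, a transcription factor of delta cells, had -0.21 ± 0.16 at 7 months between genotypes and passed in no comparison. Pdlim4 was under the array median on all arrays. The mean log2 level of these 4 markers ran from 5.56 to 5.75 in DKO and from 5.97 to 6.11 in WT at 7 months, and from 6.31 to 6.33 in DKO and from 6.28 to 6.41 in WT at 5 weeks. With this level as a covariate the Rbp4 difference over time was -2.43 ± 0.60 in DKO (limma adjusted p = 0.93) and -0.86 ± 0.31 in WT (limma adjusted p = 0.819), its interaction -1.57 ± 0.38 (limma adjusted p = 0.687), and its genotype difference at 7 months -1.74 ± 0.36. That fit called 6 of all genes between genotypes at 7 months, and Tlr2 was not among them (limma adjusted p = 0.186). In whole islets, fewer cells of a type and less RNA per cell cannot be told apart.

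**Figure D2:**
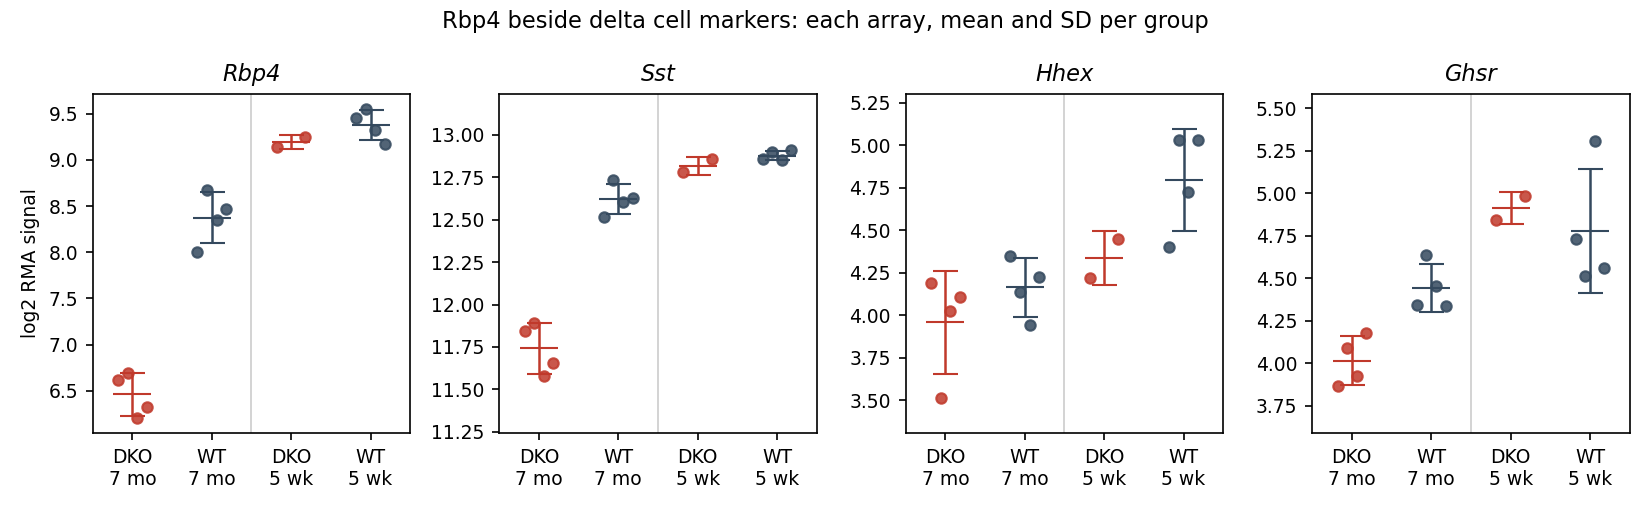
Log2 RMA signal (vertical axes, scaled per gene) of Rbp4 and of the delta cell markers Sst, Hhex and Ghsr on every array, by genotype and time (horizontal axes). Points are arrays, and bars are the mean and SD of the group. Rbp4 and Sst are lowest in DKO islets at 7 months, apart from WT, while Hhex overlaps between the genotypes at 7 months.

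Other hormone cells moved with Rbp4 as well. All 3 measured alpha cell markers (Gcg, the glucagon gene, Irx1 and Irx2, of 5 listed) were lower in DKO at 7 months, where 4.71% of all genes passed. They also fell over time in DKO, where 7.57% of all genes passed. Irx1 and Irx2 fell over time in WT too, where 2.37% passed. The mean log2 level of these markers at 7 months ran from 6.41 to 6.63 in DKO and from 7.33 to 7.52 in WT. Both markers of pancreatic polypeptide cells, Ppy and Pyy, were lower in DKO at 7 months, with a mean level of 10.7 to 11.3 in DKO and 11.8 to 12.3 in WT. The part of these cells in the Rbp4 and Aldh1a3 results was not tested.

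Of the other enzymes of retinoic acid synthesis, Aldh1a1 differed at 7 months without passing the test, and Aldh1a2 gave low signals throughout. Aldh1a1, the main retinaldehyde dehydrogenase of many adult tissues, had log2 signals (probe set 10461979) of 3.23, 3.89, 3.88 and 4.37 in DKO islets at 7 months, against 3.21, 3.16, 2.87 and 3.02 in WT islets. At 5 weeks it had 2.33 and 3.37 in DKO islets, against 3.21, 3.42, 3.03 and 3.04 in WT islets. The genotypes did not overlap at 7 months, although replicate 1 of DKO lay just above the highest WT array, and replicate 1 of DKO at 5 weeks was the lowest of all arrays.

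The Aldh1a1 difference between DKO and WT was 0.78 ± 0.23 at 7 months (limma adjusted p = 0.0649), and -0.32 ± 0.28 at 5 weeks (limma adjusted p = 0.724). Over time Aldh1a1 rose 1.99-fold in DKO (0.99 ± 0.28, limma adjusted p = 0.0414) and differed by -0.11 ± 0.23 in WT (limma adjusted p = 0.876), with an interaction of 1.10 ± 0.36 (limma adjusted p = 0.278). The rise in DKO rested on the low array at 5 weeks: without it the difference was 0.47 (limma adjusted p = 0.524), and the call was lost in 16 of 26 other settings. Between genotypes at 7 months the adjusted p was under the threshold in 8 of 26 other settings. Aldh1a1 signals were above the array median on 1 of the 14 arrays, so its sizes are uncertain too. Aldh1a2, a dehydrogenase best known from the embryo (probe set 10586865), lay between 2.14 and 2.61 in DKO and between 2.07 and 2.45 in WT at 7 months, and between 1.84 and 2.19 in DKO and between 1.99 and 2.32 in WT at 5 weeks. These signals were under the array median on all 14 arrays, so sizes are uncertain, and Aldh1a2 passed in no comparison (largest difference 0.39 ± 0.15, over time in DKO, limma adjusted p = 0.148).

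Dhrs3, the reductase that returns retinaldehyde to retinol and a gene known to be induced by retinoic acid, had log2 signals (probe set 10510129) of 5.56, 5.85, 6.04 and 6.21 in DKO islets at 7 months, against 5.91, 5.82, 5.93 and 5.64 in WT islets. At 5 weeks it had 5.38 and 5.70 in DKO islets, against 5.66, 5.58, 5.59 and 5.66 in WT islets. The genotypes overlapped at both times. The difference between DKO and WT was 0.09 ± 0.13 at 7 months (95% interval -0.18 to 0.36, limma adjusted p = 0.763) and -0.08 ± 0.15 at 5 weeks. Over time it was 0.37 ± 0.15 in DKO (limma adjusted p = 0.167) and 0.20 ± 0.13 in WT (limma adjusted p = 0.505).

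Rarb, the receptor gene whose promoter is shown above, was higher at 7 months than at 5 weeks. Its log2 signals (probe set 10417713) at 7 months were 4.03, 4.62, 4.97 and 4.48 in DKO islets, against 4.26, 3.97, 4.50 and 4.27 in WT islets. At 5 weeks they were 3.56 and 3.89 in DKO islets, against 3.77, 3.69, 3.58 and 3.53 in WT islets. The times did not overlap in either genotype, whereas the genotypes overlapped at both times. Rarb signals were above the array median on 8 of the 14 arrays, so the sizes of its differences are uncertain.

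Over time Rarb rose 1.74-fold in DKO (0.80 ± 0.20, limma adjusted p = 0.026) and differed by 0.61 ± 0.16 in WT (limma adjusted p = 0.0743). The interaction was 0.19 ± 0.26 (limma adjusted p = 0.865), and the difference between DKO and WT was 0.27 ± 0.16 at 7 months (limma adjusted p = 0.408). Without replicate 1 of DKO at 5 weeks the rise in DKO was 0.63 (limma adjusted p = 0.277), without replicate 3 of DKO at 7 months it was 0.65 (limma adjusted p = 0.0543), and fitted on the DKO arrays alone its adjusted p was 0.152. Fitted on the WT arrays alone, the difference in WT passed (0.61 ± 0.11, limma adjusted p = 0.0169).

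Stra6 and Crabp1 passed in no comparison. Stra6, the retinol receptor (probe set 10585803), lay between 2.57 and 2.90 in DKO and between 2.61 and 2.82 in WT at 7 months, and at 2.83 and 2.97 in DKO and between 2.86 and 3.02 in WT at 5 weeks. It was under the array median on all 14 arrays, and its differences did not exceed 0.22 in size. Crabp1, which binds retinoic acid in the cytosol (probe set 10585438), lay between 3.38 and 3.99 in DKO and between 3.24 and 3.95 in WT at 7 months, and at 3.36 and 3.84 in DKO and between 3.46 and 3.67 in WT at 5 weeks. Its difference between DKO and WT was 0.03 ± 0.17 at 7 months, with a 95% interval of -0.32 to 0.39.

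Counted over the 8 genes, 2 passed between genotypes at 7 months (Aldh1a3 higher and Rbp4 lower), against 4.71% of all genes, and 1 passed at 5 weeks (Aldh1a3), against 0.994% of all genes. Nothing is read from these counts, since the genes were chosen with them known. The count at 5 weeks became 0 without replicate 1 of DKO, without replicate 2 of DKO, or without replicate 2 of WT. Over time 4 passed in DKO (Aldh1a3, Aldh1a1 and Rarb higher, Rbp4 lower), against 7.57% of all genes, and 2 in WT (Aldh1a3 and Rbp4), against 2.37%. Without replicate 1 of DKO at 5 weeks, or without replicate 3 of DKO at 7 months, 2 passed in DKO. In the interaction 1 passed (Rbp4), against 0.0903% of all genes. The other 6 genes gave 0 calls between genotypes at either time by limma, with 1 under an unadjusted p of 0.05 at 7 months and 0 at 5 weeks. The median difference of the 8 genes was 0.14 between genotypes at 7 months, against 0.01 over all genes, and 0.38 over time in DKO, against 0.02 over all genes. These medians, and the counts over time and in the interaction, include Aldh1a3 and Rbp4, chosen for their DKO values. Nothing is read from them either.

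Groups without overlap were counted as well. Between genotypes 3 of the 8 genes did not overlap at 7 months (10.6% of all genes) and 1 at 5 weeks (21.6%). Over time 3 did not overlap in DKO (26.7%) and 4 in WT (11.6%), the last being Aldh1a3, Rbp4, Rarb and Stra6. Aldh1a3 and Rbp4 are among the 8 here too, so nothing is read from these counts.

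**Figure D3:**
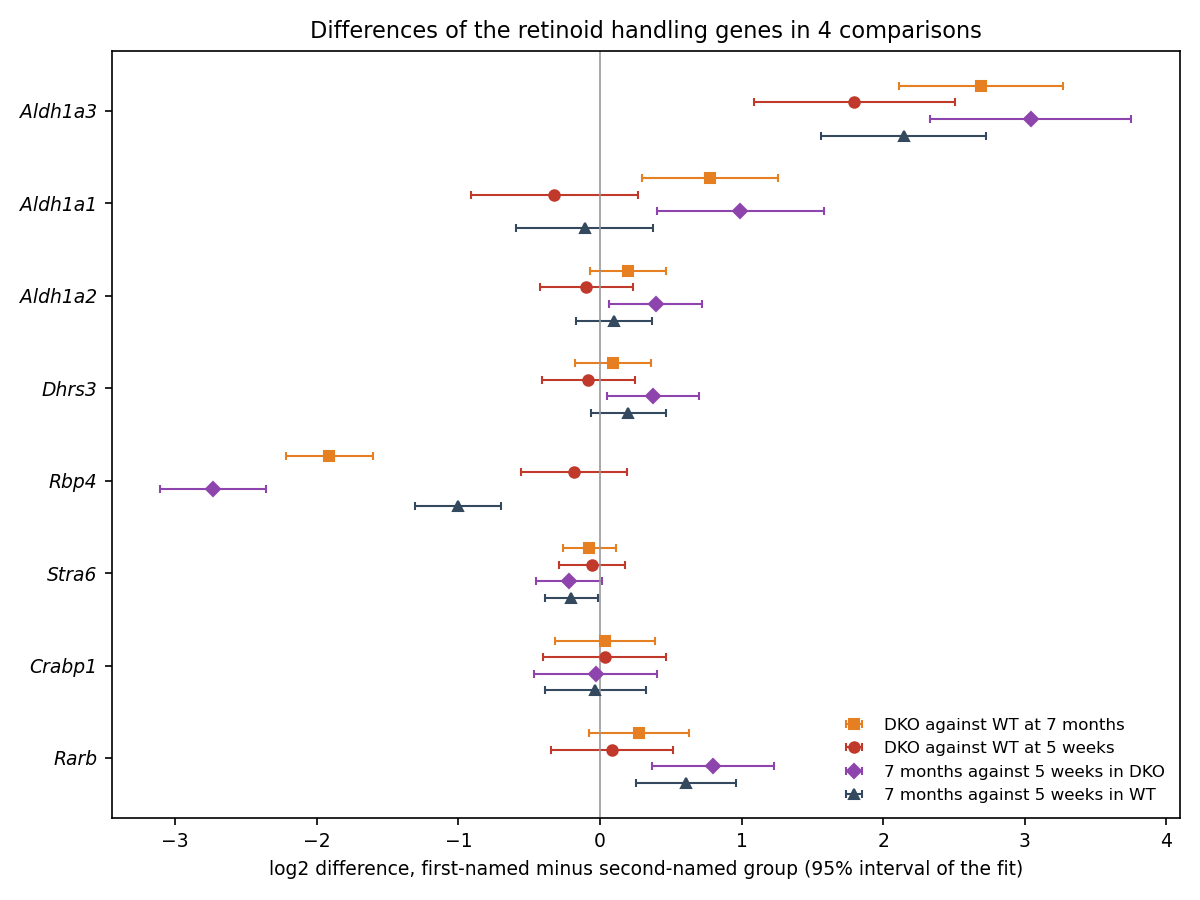
Log2 difference (horizontal axis, first-named minus second-named group) of each of the 8 genes in 4 comparisons. Points are estimates of the limma fit and bars its 95% intervals. Aldh1a3 lies right of 0 and Rbp4 left of 0 with the bars clear of 0, except Rbp4 between genotypes at 5 weeks, while the bars of Crabp1 include 0 in every comparison.

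Besides the 8 genes, 51 retinoid pathway and dedifferentiation genes were listed and 47 measured. Between genotypes at 7 months 5 of the 47 passed, 3 higher and 2 lower in DKO, against 4.71% of all genes, and at 5 weeks 0 passed by limma (7 were under an unadjusted p of 0.05), against 0.994%. Over time 4 passed in DKO, 3 higher and 1 lower, which is near the 7.57% of all genes, and 2 passed in WT, 1 higher and 1 lower, against 2.37%. In the interaction 0 passed by limma (6 under an unadjusted p of 0.05), against 0.0903%. Their median difference at 7 months was 0.06, against 0.01 over all genes.

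Among the 18 genes that turn retinol and beta-carotene into retinaldehyde or back, Bco1 and Rdh13 were higher in DKO at 7 months, and Bco1 and Rdh14 rose over time in DKO. Bco1 had log2 signals of 7.07, 6.79, 7.05 and 7.05 in DKO islets at 7 months, against 6.19, 6.00, 5.68 and 6.00 in WT islets. At 5 weeks Bco1 had 6.11 and 6.66 in DKO islets, against 5.82, 5.67, 5.70 and 5.44 in WT islets. The genotypes did not overlap at either time. The Bco1 difference between DKO and WT was 1.02 ± 0.13 at 7 months (limma adjusted p = 0.000431) and 0.72 ± 0.16 at 5 weeks (limma adjusted p = 0.0503), and over time in DKO it was 0.61 ± 0.16 (limma adjusted p = 0.0352). Rdh13, a mitochondrial retinaldehyde reductase, differed by 0.43 ± 0.11 at 7 months (limma adjusted p = 0.0461), and Rdh14, another reductase of the family, by 0.51 ± 0.13 over time in DKO (limma adjusted p = 0.0246). The calls of Rdh13 and Rdh14 were lost in 14 and in 6 of 27 other settings. That of Bco1 over time in DKO was lost in 8 of 27, and without replicate 1 of DKO at 5 weeks it was 0.33 (limma adjusted p = 0.45).

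Among the 7 measured receptor and corepressor genes, Rara, the most widely expressed retinoic acid receptor, was lower in DKO. Rara had log2 signals of 5.76, 6.11, 5.70 and 5.57 in DKO islets at 7 months, against 6.65, 6.92, 6.55 and 6.36 in WT islets. At 5 weeks Rara had 6.41 and 6.35 in DKO islets, against 6.72, 6.66, 6.57 and 6.80 in WT islets. The genotypes did not overlap at either time. The Rara difference between DKO and WT was -0.83 ± 0.13 at 7 months (limma adjusted p = 0.00154), and over time in DKO it was -0.59 ± 0.16 (limma adjusted p = 0.0306), a call lost in 9 of 27 other settings. The retinoid X receptor genes Rxra, Rxrb and Rxrg, whose products pair with these receptors, passed in no comparison.

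In the list of retinoic acid targets, 10 of 12 were measured, among them Rarb, Dhrs3, Stra6 and Cyp26a1. Between genotypes 0 of the 10 passed by limma at either time (1 under an unadjusted p of 0.05 at each). Of all genes 4.71% passed at 7 months and 0.994% at 5 weeks, so 0 of 10 is near these shares. The median difference of the 10 was 0.05 at 7 months, against 0.01 over all genes. Of the 10, 5 were under the array median on all arrays (Cyp26a1, Stra6, Lrat, Crabp2 and Hoxb1). Over time Rarb rose in DKO and Tgm2, a transglutaminase gene, fell in WT (-0.71 ± 0.17, limma adjusted p = 0.0464), a call lost in 13 of 27 other settings. Tgm2 was also lower over time in DKO without passing (-0.37 ± 0.21, limma adjusted p = 0.338). None of the 6 genes for binding and breakdown of retinoic acid passed. Of these Cyp26a1, the breakdown enzyme whose promoter is shown above, was under the array median on all arrays and differed by 0.05 ± 0.10 between DKO and WT at 7 months. Cyp26b1 differed by 0.60 ± 0.26 over time in DKO (limma adjusted p = 0.198).

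Of the 9 measured genes of retinol uptake, carriage and esterification, Rbp4 passed over time and in the interaction, and the other 8 passed in no comparison. The genotype difference of Rbp4 at 7 months is a description, since Rbp4 was chosen for it, and these other comparisons share its arrays. Ttr, whose product transthyretin carries RBP4 in blood and which islet cells also express, differed by 0.22 ± 0.16 between DKO and WT at 7 months (limma adjusted p = 0.517). Stra6, Stra6l, Lrat, Rbp2 and Lrp2 were under the array median on all arrays. Among the 5 retinaldehyde dehydrogenase genes Aldh1a7 and Aldh8a1 were under it too and passed in no comparison.

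Of 8 genes listed as markers of dedifferentiated beta cells beside Aldh1a3, Serpina7 rose and Myc fell. Serpina7, the gene of thyroxine-binding globulin, had log2 signals of 8.87, 7.57, 9.53 and 8.92 in DKO islets at 7 months, against 7.09, 7.40, 7.62 and 7.65 in WT islets. At 5 weeks Serpina7 had 6.06 and 6.25 in DKO islets, against 6.25, 5.68, 5.84 and 5.90 in WT islets. The genotypes overlapped at both times. At 7 months the overlap came from replicate 2 of DKO, the lowest DKO array at that time for Aldh1a3 too. Serpina7 was 2.43-fold higher in DKO at 7 months (1.28 ± 0.30, limma adjusted p = 0.0223, lost in 8 of 27 other settings) and rose over time 5.91-fold in DKO (limma adjusted p = 0.000689) and 2.87-fold in WT (limma adjusted p = 0.0134). Myc, a growth regulator, was lower in DKO at 7 months (-1.02 ± 0.23, limma adjusted p = 0.0184, lost in 4 of 27 other settings). Neurog3, Sox9, Mycl, Gast, Hk1 and Ldha passed in no comparison.

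**Figure D4:**
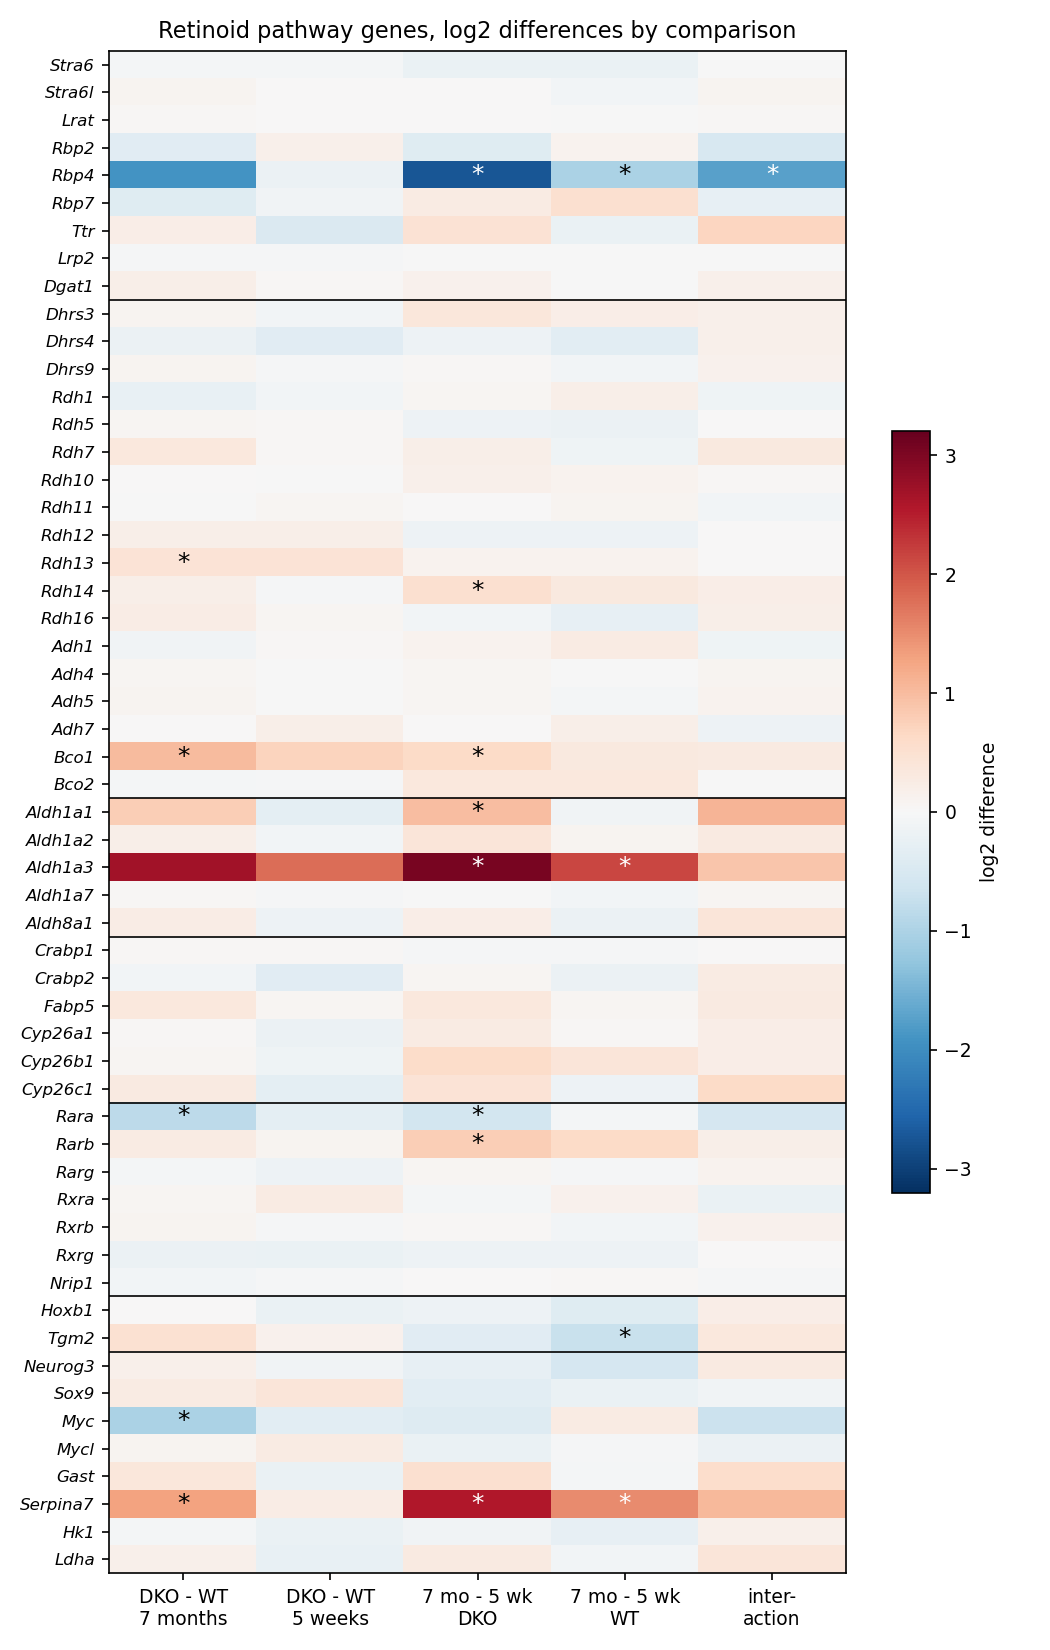
Log2 difference (colour, red higher and blue lower in the first-named group) of the 55 measured retinoid and dedifferentiation genes (rows, by role) in 5 comparisons (columns). A star marks an adjusted p under 0.05, left off the genotype comparisons of Aldh1a3 and Rbp4, which are descriptions. The deepest colours are those of Aldh1a3, Rbp4 and Serpina7, and most other cells are pale.

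Cell types outside the endocrine islet also differed beside these genes. Of 9 stellate cell and fibroblast markers, 6 were higher in DKO at 7 months, where 4.71% of all genes passed, and their mean log2 level ran from 5.96 to 6.67 in DKO and from 5.20 to 5.45 in WT at that time. At 5 weeks it ran from 5.37 to 5.62 in DKO and from 5.51 to 5.81 in WT. Of these markers Acta2 was lower in DKO at 5 weeks (mean 6.05, against 7.03 in WT), where 0.994% of all genes passed. Over time Dcn and Pdgfra fell and Rgs5 rose in WT (2.37% of all genes passed). In DKO Pdgfrb, Acta2 and Rgs5 rose over time (7.57% passed). Of 7 macrophage markers, 4 were higher in DKO at 7 months, with a mean level of 4.58 to 5.22 in DKO and 4.30 to 4.43 in WT. Of 6 measured duct markers, Tspan8 was lower in DKO at 7 months. Of 5 mesothelial markers, Msln was lower, with a mean of 2.87 in DKO and 5.29 in WT. Of 7 endothelial markers, Tek was higher and Emcn lower. Of 6 adipocyte markers 0 passed by limma between genotypes at either time (1 under an unadjusted p of 0.05 at each). Acinar markers, from the enzyme-secreting tissue around islets, had a mean level of 8.25 to 8.59 in DKO and 5.94 to 7.88 in WT at 5 weeks, and of 7.43 to 7.79 in DKO and 5.13 to 8.06 in WT at 7 months. Of the 11 measured acinar markers 0 passed by limma in any comparison (between 0 and 2 under an unadjusted p of 0.05). With the acinar level as a covariate the rise of Rarb in DKO had an adjusted p of 0.071 and that of Aldh1a1 one of 0.0954. The part of stellate cells and macrophages in the Aldh1a1, Rarb and Dhrs3 values was not tested.

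Aldh1a3 and Rbp4 ran opposite over the 14 arrays (r = -0.94), but once each group's mean was removed little of this was left (r = -0.162), so the relation lay between groups. Other pairs kept it within groups. Aldh1a1 and Dhrs3 had r = 0.754 over all arrays and r = 0.775 within groups, Rarb and Dhrs3 r = 0.784 and r = 0.596, and Rarb and Stra6 r = -0.916 and r = -0.781. In DKO islets at 7 months, replicate 1 had the lowest signal of the 4 arrays for Aldh1a1, Rarb and Dhrs3 and the highest for Stra6. These are descriptions over 14 arrays that share genotype, time and tissue makeup.

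The genes most like Aldh1a3 over the 14 arrays were Rapgef5 (r = 0.978), Fkbp2 (r = 0.971), Rasgrf2 (r = 0.967), Ampd2 (r = 0.965) and D130043K22Rik (r = 0.965), where the median r of all genes with Aldh1a3 was 0.0718. Rapgef5 and Rasgrf2 encode exchange factors of small GTPases, and Fkbp2 a prolyl isomerase of the endoplasmic reticulum. Running most opposite were Nnat, the imprinted neuronatin gene (r = -0.978), Fbxl16 (r = -0.97) and Gnai1, an inhibitory G protein subunit (r = -0.961). Within groups the r with Aldh1a3 was 0.698 for Rapgef5, 0.653 for Fkbp2, 0.701 for Rasgrf2 and -0.605 for Nnat, but 0.0882 for D130043K22Rik and -0.138 for Fbxl16.

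The genes most like Rbp4 were Sst (r = 0.987), Irx2, an alpha cell transcription factor (r = 0.981), Ndst4, a heparan sulfate sulfotransferase (r = 0.981), Syt1, a sensor of calcium in exocytosis (r = 0.977), and Ifih1, a sensor of viral RNA (r = 0.976). The median r of all genes with Rbp4 was -0.0677. Most opposite were Serpini1, the neuroserpin gene (r = -0.964), Smoc1 (r = -0.959) and Rapgef5 (r = -0.955). Within groups the r with Rbp4 was 0.828 for Sst, 0.646 for Ndst4 and 0.683 for Syt1, and -0.0273 for Serpini1.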

How the data were processed

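The authors deposited log2 signals made by RMA, per the submitters' processing notes, which give no version. Islets were snap-frozen and 100 ng of total RNA was labelled per array, per the labels. Of 35556 probe sets, 21218 carried 1 gene symbol, 1881 several and 12457 none, and only the first kind was used, 1 probe set per gene. Symbols were matched by Entrez identifier for 18790 of 18820 genes. The values carry no detection calls, so a probe set under the array median is called low, not absent. The number of arrays limits the precision.

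All 14 arrays and 18820 genes entered a single fit of the group means with limma 3.58.1 in R 4.3.3, which was tested on simulated data. P-values were adjusted over all genes by Benjamini-Hochberg within each of 5 comparisons and judged at 0.05; they measure the spread between these mice. The 8 genes and the lists (7 pathway and 11 cell type lists, 121 of 133 genes measured) were chosen with earlier results of these data known. Genes named are the 8, up to 6 per pathway list that passed (or up to 2 of smallest p where none did), and the 5 most like and 3 most opposite Aldh1a3 and Rbp4. Cell type lists are given by counts, with calls over time given for some lists only. A few values of other list genes were chosen after they were seen (Ttr, Cyp26b1, Hhex, Slc2a2, Ucn3). Same-numbered arrays did not vary together (r from -0.163 to 0.158 over 18 pairs), so replicate numbers were not used to pair the mice in the main fit. A small effect shared by such arrays could escape this check. The description labels hold a letter code of unstated meaning, no letter of which is shared between groups, so an effect of what it stands for was not tested. Motifs were searched with Python 3.11.15 in RefSeq promoters, and figures drawn with matplotlib 3.10.9. Alternatives were fits on the compared arrays, another prior, dim genes left out, other scalings, array weights, probe set averages, the replicate number, the number in the description label, the acinar or the delta cell level in the model, another threshold, and each array left out in turn.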

Additional observations from a re-analysis of the deposited data

Results flagged for a closer look

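The 8 genes, the pathway list genes that passed in a comparison, Sst and Tlr2, 17 genes in all, were checked for outlying arrays. The check covered the 3 groups of 4 arrays, 51 groups in all. An array far from the other 3 was sought by Dixon's test of its gap over the range at 95%. Chance alone singles out about 1 in 20 groups. Stra6 in replicate 3 of WT at 7 months was 2.61, where the other 3 lay between 2.79 and 2.82. Bco1 in replicate 2 of DKO at 7 months was 6.79, where the other 3 lay between 7.05 and 7.07. Myc in replicate 2 of WT at 5 weeks was 5.79, where the other 3 lay between 6.45 and 6.51. The difference between DKO and WT was itself different at 7 months and 5 weeks, by the interaction term of the limma fit, for Rbp4 (-1.73) and for Sst (-0.818), both more negative at 7 months. The call for Rbp4 was lost without replicate 1 of DKO at 5 weeks and contains the difference at 7 months for which Rbp4 was chosen, and that for Sst was lost in 12 of 26 other settings.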

How the results depend on the processing

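Of 944 tested values of the 8 genes under other settings, 853 kept their direction and side of the threshold, 27 lost it, 14 gained it and 50 changed sign. Some of this was fixed in advance. Averaging probe sets could not change a difference, as none of the 8 genes has several, and the looser threshold reuses the main fit. Values that did not pass count as kept where they stayed so. The genotype differences of Aldh1a3 and Rbp4, given with no test, are not among these values. The sign changes included those of Rarb over time in DKO and in WT, both with the delta cell level in the model. The directions of Aldh1a3 and Rbp4 held in all settings. Where a value changed, the cause was not tested unless stated. The number of genes passed over time in DKO was 2 on the DKO arrays alone, 2 with the replicate block, 2 with the acinar level in the model, 0 with the delta cell level in the model, and between 2 and 5 with each array left out. With the delta cell level the other counts were 0 at 7 months, 0 over time in WT and 0 in the interaction, and Tlr2 was -1.29 at 7 months with an adjusted p of 0.186. In that fit Rarb was -0.0044 at 5 weeks, -0.55 at 7 months, -0.071 over time in WT, -0.62 over time in DKO and -0.55 in the interaction, Stra6 was 0.10 at 7 months, 0.087 over time in DKO and 0.14 in the interaction, and Crabp1 -0.090 at 7 months and -0.11 in the interaction. Crabp1 over time in DKO was 0.019 with median centring, 0.012 with quantile normalization, 0.049 with array weights, 0.0028 with the replicate block and 0.037 with the acinar level, which also gave -0.056 at 5 weeks, -0.047 at 7 months and 0.028 over time in WT. Its value at 5 weeks with the replicate block was -0.00053. Stra6 in the interaction was 0.045 with median centring, 0.0063 with quantile normalization and 0.0014 with the replicate block.

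With each array left out, the count of genes passed ran from 0 to 1 at 5 weeks, 2 to 3 at 7 months, 2 to 3 over time in WT and 0 to 1 in the interaction, and 3 to 5 of the 5 genes most like Aldh1a3 or Rbp4 stayed among them. At 5 weeks Aldh1a1 then ran from -0.84 to 0.19, Aldh1a2 from -0.27 to 0.078, Stra6 from -0.13 to 0.015, Crabp1 from -0.21 to 0.27, Rarb from -0.083 to 0.25 and Dhrs3 from -0.24 to 0.077. At 7 months Crabp1 ran from -0.10 to 0.17 and Dhrs3 from -0.0069 to 0.21. Over time Crabp1 ran from -0.17 to 0.065 in WT and from -0.27 to 0.21 in DKO, and in the interaction Crabp1 ran from -0.24 to 0.24 and Stra6 from -0.090 to 0.056. Over all genes the counts ran, over these settings and then the others, from 44 to 236 and from 93 to 366 at 5 weeks, from 528 to 1681 and from 6 to 1518 at 7 months, from 221 to 527 and from 0 to 786 over time in WT, from 378 to 2051 and from 0 to 2206 over time in DKO, and from 2 to 185 and from 0 to 64 in the interaction. Low signals limit what Aldh1a1, Aldh1a2, Stra6, Crabp1 and Cyp26a1 can show, and Rarb to a lesser degree. The 2 DKO arrays at 5 weeks limit every comparison that uses them.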
